A study of Mus musculus with 4 samples.

Results

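The immunity-related GTPases (IRG proteins) examined here were Irgm1, Irgm2, Igtp, Iigp1, Tgtp1 and Tgtp2, 6 genes of the 28074 gene symbols in a table of expression values from mouse leukaemic spleen cells. They were chosen by name, with their higher values under the drug R848 already known, so the comparison of R848 with control is given for them as a description without a test. All 6 symbols were found in the table. The cells came from 2 mice, 4050 and 4182, whose genotype is written as Dnmt3afl/fl,Flt3ITD/ITD,Mx1Cre in one label field and as Dnmt3a+/-Flt3ITD in a protocol, a conflict that was not resolved. Mx1Cre is a Cre recombinase driven by the interferon-inducible Mx1 promoter, and both control and treated cells carry it. Frozen leukaemic cells of each mouse recovered for 24 hours in medium with SCF, IL6 and IL3 and were then kept for 3 days with vehicle alone, the control (n = 2), or with R848 at 10 µg/ml (n = 2). R848 (resiquimod) is a small molecule that activates TLR7, a receptor for RNA in endosomes. The age of the mice was not given in the sources used here, and each treatment was measured once per mouse.

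IRG proteins are interferon-inducible GTPases of mouse cells that defend against vacuolar pathogens such as Toxoplasma gondii. The effectors, among them Iigp1 (Irga6) and the Tgtp proteins (Irgb6), coat the membrane around the parasite and break it open, while the regulators Irgm1, Irgm2 and Igtp (Irgm3) sit on the cell's own membranes and hold the effectors inactive there. The regulators carry methionine in place of the usual lysine of the nucleotide-binding loop. Interferon gamma induces the family through promoter sequences known as GAS elements and through interferon-stimulated response elements (ISRE), which IRF factors bind.

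The promoters are shown because the 6 genes were high together with R848 and because those elements are known routes to their induction. RefSeq promoter sequences (GRCm38.p6) were found for 5 members, and Iigp1 had no entry. The bases from 100 to 1 upstream of each RefSeq gene start follow, 5′ to 3′ on the gene's strand. Capitals mark matches to an ISRE-type motif, GAAANNGAAA, or a GAS-type motif, TTCNNNGAA.
Irgm1 (chr11:48871421-48871520, minus strand): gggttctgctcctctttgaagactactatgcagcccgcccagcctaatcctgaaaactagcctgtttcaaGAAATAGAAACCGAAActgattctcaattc
Irgm2 (chr11:58214877-58214976, plus strand): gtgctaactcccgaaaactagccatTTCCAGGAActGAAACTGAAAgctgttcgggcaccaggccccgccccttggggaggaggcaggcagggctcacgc
Igtp (chr11:58199456-58199555, plus strand): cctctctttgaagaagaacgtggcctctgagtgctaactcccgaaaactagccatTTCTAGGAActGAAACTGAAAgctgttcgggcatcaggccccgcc
Tgtp1 (chr11:48992247-48992346, minus strand): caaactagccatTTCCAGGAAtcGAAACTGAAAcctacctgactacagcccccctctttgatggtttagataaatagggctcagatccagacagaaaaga
Tgtp2 (chr11:49064213-49064312, minus strand): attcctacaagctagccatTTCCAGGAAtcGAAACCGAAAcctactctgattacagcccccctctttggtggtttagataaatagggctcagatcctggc

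Both motifs were searched on both strands in the 250 bases upstream of the start. The ISRE-type motif was found in all 5 member promoters and in 2.98% of all 32851 promoters of that length, and the GAS-type motif in 4 of the 5 and in 7.02% of all. Irgm1 held 2 overlapping ISRE-type matches, starting 30 and 24 bases before the start, and no GAS-type match. In Irgm2, Igtp, Tgtp1 and Tgtp2 the GAS-type match lay upstream of the ISRE-type match with 2 bases between them, and began 75, 45, 88 and 81 bases before the start. That arrangement, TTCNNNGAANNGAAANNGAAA, was looked for after the sequences had been read. It was present in 5 promoters of the table, those 4 and that of Gm12185, for which RefSeq gives the IRG synonym Irgb2b1. Over 250 bases the aligned identity was 68.1% between Irgm2 and Igtp and 61.5% between Tgtp1 and Tgtp2, so these promoters are not independent examples. The other 8 pairs, those with Irgm1 included, ranged from 44.0% to 51.5%. A match is a run of letters and not a measured binding site.

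**Figure D1:**
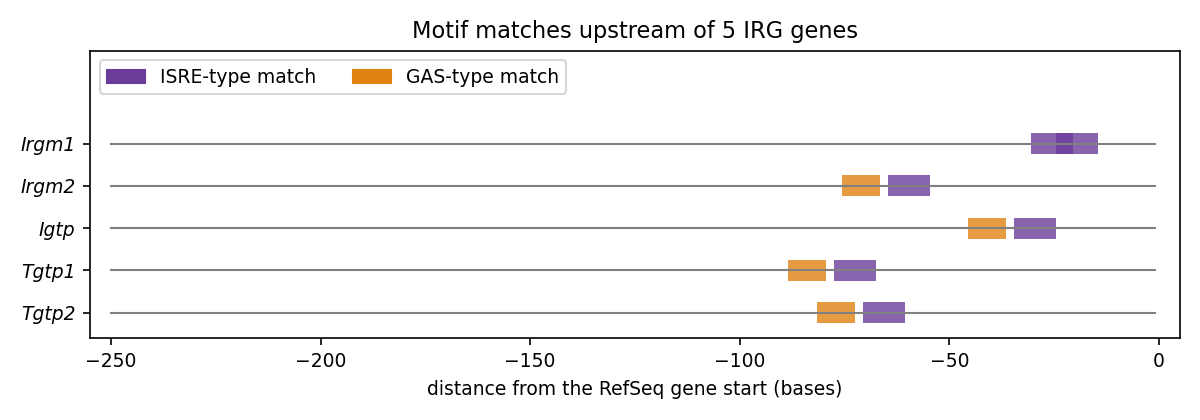
Positions of ISRE-type and GAS-type matches in the 250 bases upstream of the RefSeq start of 5 IRG genes, with the distance from the start in bases on the x axis and 1 line per gene. In Irgm2, Igtp, Tgtp1 and Tgtp2 the 2 kinds of match lie side by side, whereas Irgm1 has ISRE-type matches alone.

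Values are given in FPKM, as the authors named them, on a scale that corrects for transcript length and on which each sample summed to between 950530 and 962001. With no read counts at hand the depth is unknown, and differences are of log2(FPKM + 1), which understates the change of low genes. Among 12612 genes tested with limma, 1.47% were called higher and 0.381% lower with R848 at an adjusted p under 0.05, or 3.40% and 1.90% with the mouse as a block. All 6 members were called higher in both fits, a count from which nothing is read because the members were chosen on this contrast. Every call made below without the block ended when the filter on low values was left out, since no gene then passed. Their median log2 difference was 4.09 beside a median of -0.08 over all tested genes. The samples are bulk RNA, in which more cells of a type and more RNA per cell cannot be told apart.

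The regulators were already expressed without the drug and were several times higher with it. Irgm1, which is also known for its role in clearing mycobacteria, was at 13.4 FPKM in the control of mouse 4050 and 15.6 in that of mouse 4182, and at 88.9 and 162 with R848. Both treated samples lay above both controls, which the choice of the members on this contrast favours. The log2 difference was 2.64 in mouse 4050 and 3.29 in mouse 4182. Irgm2 was at 5.45 and 6.22 FPKM in the controls and at 38.6 and 49.0 with R848, in the same mouse order. The mice were closest for this gene, at log2 differences of 2.62 and 2.79. Igtp, an endoplasmic reticulum GTPase, was at 14.3 and 18.6 FPKM in the controls and at 133 and 267 with R848. It had the highest level of the 3 regulators in every sample and the largest log2 difference among them, 3.13 and 3.78.

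Among the effectors, Iigp1 and Tgtp1 were below every regulator in the controls and Tgtp2 was a little above Irgm2. With R848 both Tgtp genes were above Irgm1 and Irgm2 in each mouse, and Iigp1 was above Irgm2. Iigp1 was at 0.301 FPKM in the control of mouse 4050 and 0.316 in that of mouse 4182, and at 42.0 and 188 with R848. Its mean passed the filter of 1 FPKM through the treated samples alone. Its log2 differences, 5.05 and 7.16, were the furthest apart between the mice of any member, and its R848 values of 115 ± 103 FPKM (SD, n = 2) spread almost as widely as their mean. Tgtp1 was at 1.61 and 3.61 FPKM in the controls and at 123 and 356 with R848, and its log2 differences were 5.56 and 6.27. Tgtp2 was at 6.22 and 8.30 FPKM in the controls and at 154 and 306 with R848, and its log2 differences were 4.42 and 5.04. For each effector both treated samples lay far above both controls, which the choice of the members on this contrast again favours. For Iigp1 and Tgtp1 the SD with R848 exceeded 60% of the mean.

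**Figure D2:**
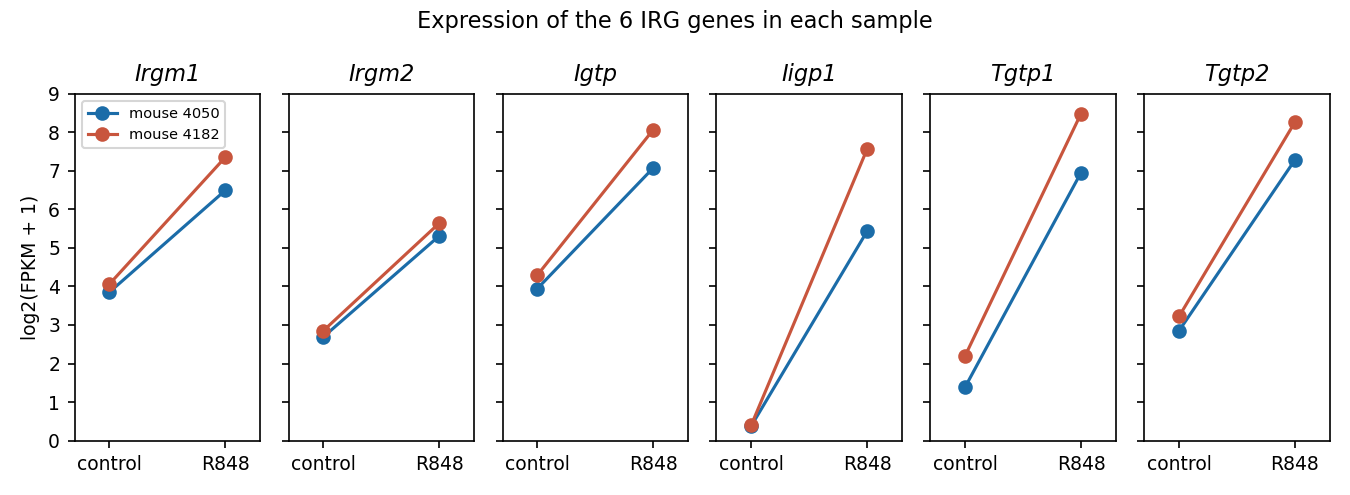
Expression of the 6 IRG genes as log2(FPKM + 1) on the y axis, with control and R848 on the x axis and 1 line per mouse, the regulators Irgm1, Irgm2 and Igtp first and the effectors Iigp1, Tgtp1 and Tgtp2 after them. Every line rises, and the lines of the effectors, from a control value of 0.38 for Iigp1 at the lowest, are steeper than those of the regulators.

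The balance of the 6 genes differed between the groups. The smallest log2 difference of an effector in either mouse, 4.42 for Tgtp2, was above the largest of a regulator, 3.78 for Igtp, and the order of effectors above regulators in the mean difference held in each of the 12 alternative settings. Settings that change only the block or the filter, for example, leave these differences as they were. The 6 genes together made 41.3 and 52.6 FPKM in the controls of mice 4050 and 4182 and 580 and 1327 after R848, which is 14.0 and 25.2 times as much. The 3 regulators together were 7.87 and 11.8 times higher, and the 3 effectors 39.2 and 69.4 times higher. Effectors therefore made up 19.7% and 23.2% of the 6-gene sum in the controls and 55.0% and 64.0% with R848. This share rests on which IRG genes are summed. With Ifi47 (Irgd), a further IRG gene outside the regulators that was already at 36.7 and 32.9 FPKM in the controls, counted beside the effectors, it was 57.5% and 52.8% in the controls and 62.1% and 67.6% with R848. The groups did not overlap in either share, which was not tested for the reason given above. Neither share counted the IRG-like gene 9930111J21Rik2, at 22.9 and 31.5 FPKM in the controls and 31.7 and 29.2 with R848. Gm12250, at 3.70 and 4.72 FPKM in the controls and 47.2 and 106 with R848, was not counted either. The separation is therefore stated for these sums alone. The log2 difference of Ifi47, 1.84, was below that of every regulator.

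The order of the levels changed with it. Both controls ran from Igtp through Irgm1, Tgtp2, Irgm2 and Tgtp1 down to Iigp1. Igtp (16.4 ± 3.00 FPKM, SD, n = 2) and Irgm1 (14.5 ± 1.60) lay within their spread of each other, as did Tgtp2 (7.26 ± 1.47) and Irgm2 (5.83 ± 0.542). With R848 the highest gene was Tgtp2 in mouse 4050 and Tgtp1 in mouse 4182, and Irgm2 was the lowest in both. The means of Tgtp1 (239 ± 165), Tgtp2 (230 ± 107) and Igtp (200 ± 94.2) were within their spread, and so were those of Irgm1 (125 ± 51.7) and Iigp1 (115 ± 103).

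All 6 members had a larger log2 difference in mouse 4182 than in mouse 4050. The gap between the mice ran from 0.18 for Irgm2 to 2.12 for Iigp1. Over all tested genes 33.8% had the larger difference in mouse 4182, and among the 185 called higher it was 132 (71.4%). With 1 sample per mouse and treatment, the difference between the mice has no replicate and was not tested.

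Tgtp1 and Tgtp2 can hardly be told apart in sequence, so their separate values are uncertain. Their coding sequences, 1245 bases each in GENCODE M21, differed at 4 positions (99.7% identity), and 84.4% of the distinct 31-base words in Tgtp1 transcripts and 90.5% of those in Tgtp2 transcripts occurred in another gene. Their sum is less exposed to that split. It was 7.84 and 11.9 FPKM in the controls and 277 and 661 with R848, which is 35.3 and 55.5 times as much. Tgtp1 took 20.6% and 30.3% of the pair in the controls and 44.3% and 53.8% with R848, a shift that rests on the 15.6% of words that are Tgtp1's own and the 9.46% that are Tgtp2's own.

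The other members were more distinct. Igtp shared 15.9% of its words with Irgm2, whose annotated span overlaps it, and Irgm1 and Iigp1 shared 2.88% and 6.92% with any other gene. Coding sequences fell into the same groups as the roles, with identities from 64.0% to 67.9% among the regulators, 58.3% between Iigp1 and either Tgtp gene, and from 50.7% to 52.9% between a regulator and an effector. These figures depend on the annotation, and the one the authors used was not given in the sources used here.

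Apart from Iigp1, the members lie in a pair of regions of chromosome 11 (GRCm38). Irgm1 (48861968 to 48871683), Tgtp1 (48985327 to 48994172) and Tgtp2 (49057194 to 49064206) span 202 kb on the minus strand. Igtp (58199556 to 58207591) and Irgm2 (58199618 to 58222782) overlap on the plus strand in GENCODE M21. The RefSeq start of Irgm2, used for its promoter above, lies beyond the end of Igtp. Within these regions and 100 kb on either side, the neighbours that rose were IRG genes too. In the first region 2 of 10 other tested genes rose by limma. Gm12185 went from 0.47 and 0.91 to 3.52 and 5.27 on the log2(FPKM + 1) scale (difference 3.71). Its control mean was 0.632 FPKM, so it was tested through its treated samples alone and had to differ. Its annotated span overlaps Tgtp1, with which it shares 7.22% of the Tgtp1 words, so its value is uncertain. Ifi47, the IRG protein Irgd, went from 5.23 and 5.08 to 6.77 and 7.22 (difference 1.84, limma adjusted p = 0.00621). In the second region 1 of 8 other tested genes rose, Gm12250. The IRG-like genes 9930111J21Rik1 and 9930111J21Rik2, which lie on either side of Tgtp1, had differences of 0.38 and 0.17 and did not pass the test (limma adjusted p = 0.554 and 0.815). Neighbours of other families, such as the ubiquitin ligase Trim41 and the ribosomal protein gene Mrpl22, had differences of 0.13 and 0.01 (limma adjusted p = 0.858 and 0.988).

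**Figure D3:**
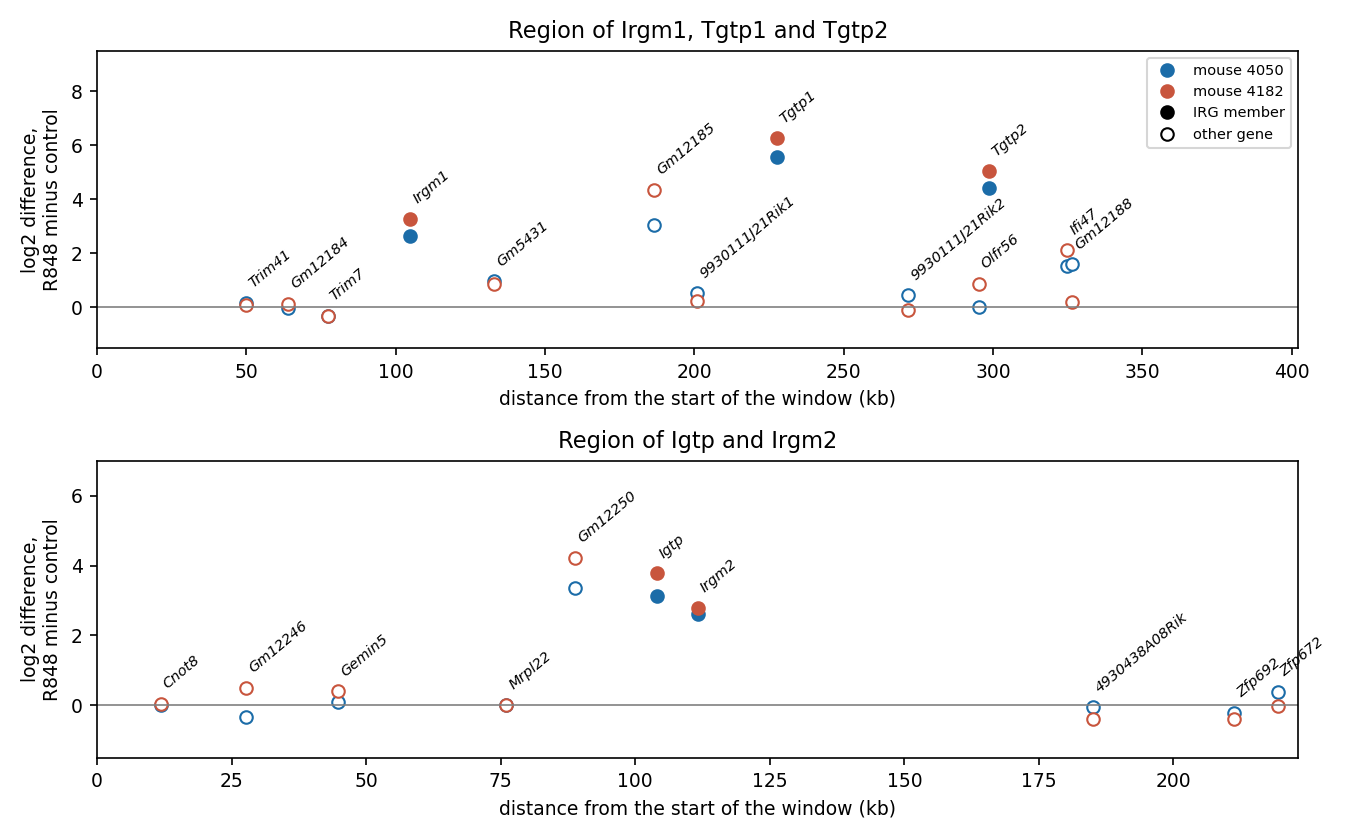
Log2(FPKM + 1) differences, R848 minus control, of tested genes in the regions of Irgm1, Tgtp1 and Tgtp2 (top) and of Igtp and Irgm2 (bottom), against the distance in kb from the start of each window, 1 point per mouse. Filled points are the members and open points the other genes, of which Gm12185, Ifi47 and Gm12250 were called higher without the block.

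Other IRG genes were taken from a list of 9, of which 8 were tested. Gm12185 and Ifi47, given above, are outside that list. By limma 2 rose and 0 fell, with a list median of 1.17. Gm12250, which encodes the effector Irgb10 and which GENCODE lists as a pseudogene, went from 3.70 and 4.72 FPKM to 47.2 and 106 (log2 difference 3.79, limma adjusted p = 0.0038). Gm4951 went from 0.795 and 2.23 FPKM to 17.6 and 51.9 (log2 difference 3.70, limma adjusted p = 0.0151). With the mouse as a block 5 rose, adding Gm4841, Gm5431 and F830016B08Rik. Without the R848 sample of mouse 4182, after quantile normalization and after median log ratio scaling, 1 rose, since the call of Gm4951 ended in each case. Irgq, a distant relative, was at 2.68 and 3.29 FPKM in the controls and at 2.74 and 2.30 with R848.

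Guanylate-binding proteins (GBPs) are larger interferon-inducible GTPases that work with IRG proteins at the parasite's vacuole. Of 11 listed, 10 were tested, and 8 rose and 0 fell by limma, with a median of 2.29. Among the 8, Gbp2b had a control mean under 1 FPKM and was tested through its treated samples alone. Gbp2 had the largest difference, 4.64, from 9.18 and 10.3 FPKM to 161 and 438 (limma adjusted p = 0.00368). Gbp4 rose by 3.60 and Gbp10 by 2.14 (limma adjusted p = 0.00162 and 0.0063). Gbp6 and Gbp8, at differences of 3.50 and 1.98, passed with the mouse as a block (limma adjusted p = 3.5e-07 and 4.4e-05) and not without it. The number called was 3 after either rescaling and 2 without the R848 sample of mouse 4182. In the promoters of the 5 GBP genes with a RefSeq entry the ISRE-type motif was found in 5 and the GAS-type in 2. Among the 5 genes with an entry in the list of 9 other IRG genes, each motif was found in 1, Gm12250. Gm12185, which is outside that list, held both.

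In the list of other interferon-inducible GTPases, which holds the giant GTPase Gvin1 and the antiviral dynamin relative Mx1, limma called 0 of the 4 tested. Their differences ran from 0.43 to 1.11, with a median of 0.80, and 2 had p under 0.05 before adjustment. Mx1 went from 3.93 and 5.50 FPKM to 6.99 and 10.4 (difference 0.75, limma adjusted p = 0.287), and Gm8995 had a difference of 0.43 (adjusted p = 0.35). With the block 2 passed, Gvin1 and Gm4070.

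The autophagy conjugation system, the Atg and LC3 proteins that IRG effectors need to reach the vacuole, had no called member. Of 15 tested, 0 passed by limma with or without the block, 0 had an unadjusted p under 0.05, and the median was -0.17. Differences ran from -0.56 to 0.19. The smallest p belonged to Map1lc3b and Map1lc3a, members of the LC3 family that mark autophagic membranes, at -0.56 and -0.44 (limma adjusted p = 0.447 and 0.463). Atg5, whose conjugate lipidates LC3, was at 25.9 and 24.2 FPKM in the controls and at 29.8 and 27.6 with R848. Of 8 ubiquitin ligases and adaptors of the vacuole 1 passed. Trim21 rose from 8.10 and 7.45 FPKM to 16.9 and 18.7 (difference 1.10, limma adjusted p = 0.0327), a call that ended after either rescaling and on leaving out the control of mouse 4182 or either R848 sample.

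In interferon signalling limma called 5 of 17 tested genes higher and 0 lower, with a median of 0.21. With the mouse as a block 6 were called higher, the added gene being Usp18, an inhibitor of type I interferon signalling (limma adjusted p = 0.00264, and 0.0504 without the block). Ifng, which encodes interferon gamma, was listed at 0 in the control of mouse 4050 and at 0.0364 FPKM in that of mouse 4182, and it was at 4.39 and 15.8 with R848. Its log2 difference was 3.22. Like Iigp1, it passed the filter through the treated samples alone, with a control mean of 0.0182 FPKM, and so had to differ once it was tested. Its call by limma, 1 of the 5, ended after either rescaling and without the R848 sample of mouse 4182. Ifnb1, which encodes interferon beta, was listed at 0 in 3 samples and at 0.0509 FPKM in R848-treated cells of mouse 4182.

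Downstream of the receptor, Irf1, a factor that binds ISRE elements of IRG genes, rose from 58.9 and 57.7 FPKM to 216 and 285 (log2 difference 2.07, limma adjusted p = 0.00351). Irf9 and the feedback inhibitor Socs1 rose by 0.98 and 1.13 (limma adjusted p = 0.0436 and 0.0419). The receptor chains Ifngr1 and Ifngr2 had differences of -0.17 and 0.11 and did not pass the test (limma adjusted p = 0.758 and 0.867). Ifngr1 was at 252 and 237 FPKM in the controls and at 232 and 203 with R848. The number of called members was 2 after either rescaling and without the R848 sample of mouse 4182, and 3 without that of mouse 4050 or with an untrended prior.

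**Figure D4:**
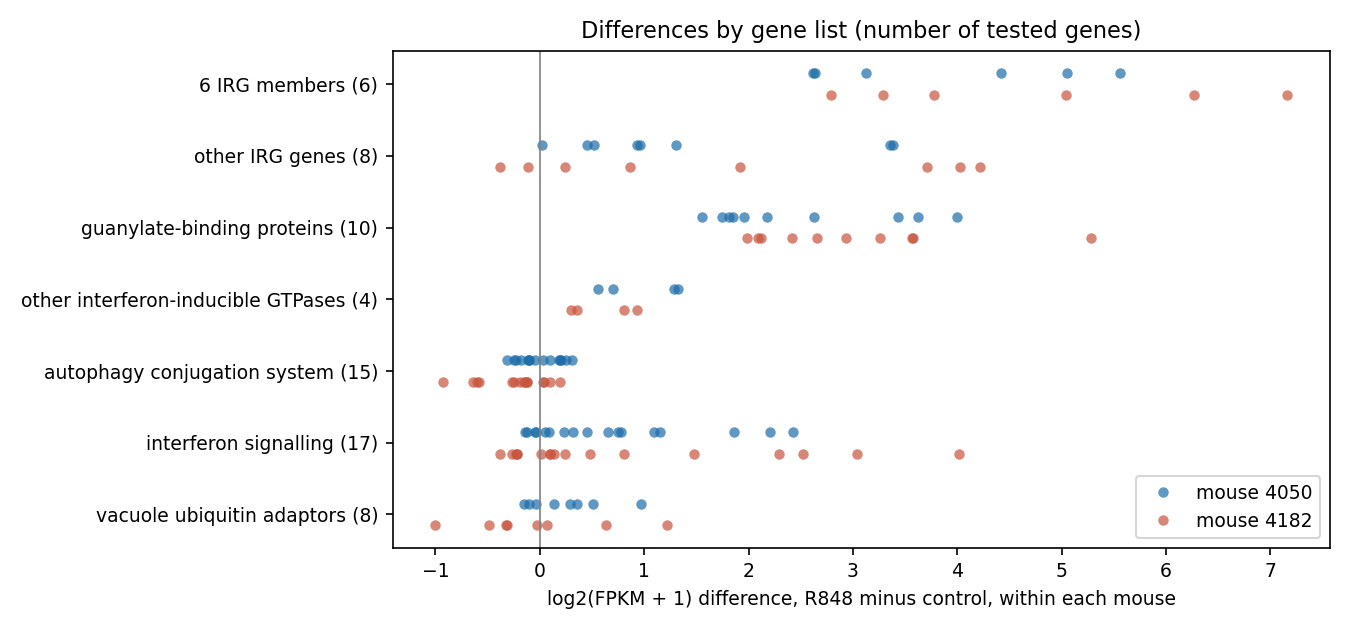
Log2(FPKM + 1) differences, R848 minus control, of tested genes in the 6 IRG members and 6 related lists, 1 point per gene and mouse. The GBP genes and the other interferon-inducible GTPases lie entirely above 0, as do the IRG members. The autophagy conjugation genes lie around 0, with mean differences from -0.56 to 0.19.

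Markers of other cell types moved with these values in part. T cells are a known source of interferon gamma, and the 10 T cell markers had a summed level of 5.12 FPKM in the control of mouse 4050 and 6.94 in that of mouse 4182, against 16.3 and 27.4 after R848. Of the 6 tested, limma called Cd3g, Trac and Trbc1 higher and 0 lower, and with the block Trbc2 too (limma adjusted p = 0.00161). The 3 had control means under 1 FPKM and passed the filter through the treated samples alone. NK cell markers had summed levels of 26.2 and 59.1 FPKM without R848 and 49.8 and 48.5 with it in the same mouse order. Gzmb made up most of each sum, at 19.9 and 52.7 FPKM in the controls and 39.9 and 35.8 with R848. Limma called 0 of the 3 tested, 1 of which had p under 0.05 before adjustment. The 2 tested besides Gzmb, Klrd1 and Klrk1, were higher in both mice. The NK receptor Ncr1 was at 0 in 3 samples. Plasma cell markers summed to 21.2 and 20.4 FPKM in control cells against 694 and 592 in treated cells, and B cell markers to 14.0 and 15.9 against 39.7 and 41.9. Igkc alone made 601 and 507 FPKM of the treated plasma cell sums, and Cd79b made up most of each B cell sum. The plasma cell markers Sdc1 and Derl3 had log2 differences of 0.59 and 0.85 and were not called. Limma called 4 of 6 plasma cell and 3 of 4 tested B cell markers higher, and with the block all 4 B cell markers, adding Cd79b (limma adjusted p = 0.0138). Of these calls 3 in each list were of genes with control means under 1 FPKM. Of 7 macrophage markers, Emr1 (now Adgre1) and Fcgr1 rose, and with the block Csf1r and Cd14 too (limma adjusted p = 0.0215 and 0.007). Cd68 was lower in both mice, at 64.3 and 68.7 FPKM in the controls and 45.6 and 59.3 with R848. Mertk was lower in mouse 4050 and higher in mouse 4182. The 7 summed to 488 and 411 FPKM in the controls against 776 and 619 in treated cells. Itgam, which was not called, made 243 and 197 FPKM of these control sums and 348 and 228 of the treated ones. Markers of plasmacytoid dendritic cells, which make type I interferon, summed to between 10.3 and 18.6 FPKM in all samples, with 0 of 2 tested passing and 0 at an unadjusted p under 0.05. Tcf4 alone made up most of that sum in each sample. Siglech and Ccr9 were under 1 FPKM in every sample and were not tested. The part of these cell types in the IRG values was not tested.

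The neutrophil lineage markers, which check the labelled leukaemic cells against a myeloid identity, summed to between 54078 and 92218 FPKM. Of 8 tested, limma called 0, with 2 at p under 0.05 before adjustment. The progenitor markers Kit, Cd34, Flt3, Gata2 and Meis1 summed to 63.8 and 85.6 FPKM in control cells against 46.9 and 36.9 in treated cells. The main fit called 0 of the 4 tested (limma, 2 with p under 0.05 before adjustment), and the blocked fit called 2 lower.

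Among tested genes, the 5 whose pattern over the 4 samples was most like the mean of the 6 members were Gbp2, Vnn3, Aif1, Slc13a3 and Mzb1. Names of predicted or clone genes were left out of this ranking, the IRG genes Gm12250 and Gm4951 among them, so closer genes may exist. Likeness was the root mean square distance of centred log2(FPKM + 1) values, at 0.20 for Gbp2 and between 0.32 and 0.42 for the others. The members themselves lay between 0.22 for Tgtp2 and 0.97 for Iigp1 from their own mean, so these 5 genes were nearer to it than most members were. Aif1, a calcium-binding protein of macrophages, went from 4.85 and 3.27 FPKM to 69.9 and 109, and Vnn3, a pantetheinase, from 0.455 and 0.577 to 14.2 and 26.0. Since the members' mean is a high value in both R848 samples, any gene near it must share that. Vnn3, Slc13a3 and Mzb1, with control means of 0.516, 0.109 and 0.234 FPKM, were also tested through their treated samples alone.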

How the data were processed

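RNA sequencing of 4 samples was analysed from 1 table of the whole series. The authors deposited log2 values that their file name calls log2 FPKM. Undoing log2(value + 1) gave nearly equal sums per sample, as TPM would. Per the submitters' processing notes, kallisto and mm10 were used. For the versions, annotation and strand setting nothing is stated in the labels. A kit for stranded mRNA and depletion of ribosomal RNA both appear in the labels' protocols.

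Of 28192 rows, 27 with date-like names and 91 repeats were dropped. Genes averaging 1 FPKM or more were tested together with limma 3.58.1 (R 4.3.3) on log2(FPKM + 1), two-sided, with a trended prior and Benjamini-Hochberg adjustment over 12612 genes at 0.05. Per the labels, samples with the same number come from 1 mouse and are therefore paired; the correlation of their deviations from the group means was 0.289. No block is in the main fit, and the paired fit is given where it changes a call in the lists. The fit was tested on simulated data. With 2 samples per group, limma borrows the spread from other genes.

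The members and lists were chosen with earlier results of these data known. Named genes are, from each list, up to 3 called in each direction with the smallest p, or otherwise the 2 smallest p. The values of 1 such gene of the interferon signalling list are not reported here. Neighbours, genes named beside these and the spacing of the motifs were chosen after values or sequences were seen, as was a sum with Ifi47. Coordinates are from GENCODE M21 (GRCm38), promoters from RefSeq (GRCm38.p6). Coding sequences were aligned globally with Biopython 1.88. Alternatives were another pseudocount (0.1), no filter, a filter of 5 FPKM, median log ratio scaling, quantile normalization, an untrended prior, the block, summed repeats and leaving out each sample.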

Additional observations from a re-analysis of the deposited data

How the results depend on the processing

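All 6 members were higher with R848 in the main fit and under all 12 alternatives, and 62 of their 72 alternative log2 differences moved by no more than the SD between the mice. Changes of the filter, the prior, the block or the repeats left every member difference as it was. Those values were unmoved by construction. By limma the members called were 6 in every setting but that with no filter, where no gene passed (0 higher and 0 lower, with 1880 genes at an unadjusted p under 0.05). The counts over all genes, 185 higher and 48 lower, became 429 and 240 with the mouse as a replicate block, 76 and 12 after quantile normalization, and 91 and 15 after median log ratio scaling. Leaving out each sample gave 46 to 259 higher and 10 to 136 lower. The cause of these changes was not tested. Of 180 alternative results for the named genes of the lists, 159 stayed called or stayed uncalled, and 0 reversed. Genes not called in the main fit, such as Mx1, Map1lc3b and Ifngr1, make up part of the 159. The rest of the 180 were calls that ended, most often those of Trim21, Gm4951 and Ifng. The unknown depth limits what can be said of genes near 0, such as Iigp1 and Ifng in the controls.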

Other observations

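Irgc1, an IRG gene known from testis, was below the filter and untested, at 1.40 and 1.11 FPKM in the controls of mice 4050 and 4182 and at 0.412 and 0.493 with R848. Both treated samples lay below both controls, as also held for uncalled genes such as Atg4b (limma adjusted p = 0.721). Gm4841, an IRG gene related to Iigp1, was at 2.30 FPKM with R848 in mouse 4050 and at 18.3 in mouse 4182, from 0.329 and 0.474 in the controls.

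The giant GTPases Gvin1 and Gm4070 differed between the mice in opposite directions. Gvin1 was at 87.8 FPKM in the control and 220 with R848 in mouse 4050, and at 20.5 and 26.7 in mouse 4182. Gm4070 was at 30.1 and 75.2 FPKM in mouse 4050 and at 108 and 206 in mouse 4182. The difference between the mice was not tested.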
